A study of Mus musculus with 6 samples.

Results

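The epithelial-mesenchymal transition (EMT) genes examined here were 10 genes chosen by name, CDH1, CDH2, VIM, FN1, ACTA2, SNAI1, SNAI2, ZEB1, ZEB2 and TWIST1, out of 39234 genes in the deposited table. No measured value entered the rule that names them, but earlier results of these data were known when they were chosen. In EMT, epithelial cells lose the E-cadherin junctions that hold them to their neighbours and take up a migratory state rich in vimentin, N-cadherin and fibronectin. The switch is driven by zinc finger factors of the SNAI and ZEB families and by the basic helix-loop-helix factor TWIST1, which bind E-box sequences and silence CDH1. In the kidney, injured tubular epithelium can turn on part of this programme without leaving the tubule, and the proximal tubule is known for carrying N-cadherin and cadherin-6 rather than E-cadherin as main cadherins.

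RNA was sequenced from HK-2 cells, an immortalized line of human proximal tubule epithelium, in 3 control libraries and 3 libraries with USAG-1 overexpression. USAG-1 is a secreted antagonist of BMP and Wnt signalling encoded by SOSTDC1. The labels list all 6 libraries with the same wild-type genotype, and the study's methods describe overexpression by transient transfection of a plasmid, so a culture mixes transfected and untransfected cells. The paper describes vector-transfected HK-2 cells as the comparison in another experiment and biological triplicates for most experiments, but ties neither to these libraries by name. The p-values therefore measure the spread between these libraries, which may be technical. The organism was labelled mouse, whereas the cell line and all gene identifiers were human.

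Library totals ran from 41236194 to 48699471 counts. In CPM (counts relative to the library total, expressed per 1e6 and scaled by the trimmed mean of M-values), 3 counts, the limit that a count of 0 allows, corresponded to 0.0608 to 0.0719. SOSTDC1 had 79, 80 and 60 counts in control libraries and 5072, 3907 and 4438 in USAG-1 overexpression libraries, so the overexpressed gene was high in every library labelled so. Control replicate 3 stood apart from the other controls, at -54.3 on the second principal component against 28.2 and 25.2, so the results that rest on it are given with and without it. Mitochondrially encoded transcripts took 4.80% to 5.59% of the counts in control libraries and 1.504% to 1.55% in USAG-1 overexpression libraries, and leaving them out of the library sizes changed no call among the 10 genes.

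Among the EMT genes, 2 rose with USAG-1 overexpression, FN1 to 1.28 times and CDH2 to 1.22 times the control level, and none fell. The other 7 genes that could be tested, SNAI1, SNAI2, ZEB1, ZEB2, TWIST1, VIM and ACTA2, did not pass the test. CDH1 stayed at 9 counts or fewer in every library, and no difference was detectable at counts this low. Genes were tested by quasi-likelihood in edgeR, and a gene was called at a Benjamini-Hochberg adjusted p under 0.05, with adjustment over all 18188 genes tested. The same rule called 15.9% of all genes tested, 8.95% as higher and 6.91% as lower, so the share of EMT genes called lay near the background. Over the 9 genes tested the median log2 fold change was 0.08, and over all genes tested it was -0.02. By DESeq2 and by limma-voom none of the 9 fell either, and the 3 genes with an unadjusted p under 0.05, FN1, CDH2 and ZEB1, were all higher. CPM was not corrected for transcript length, so levels were compared between groups and not between genes.

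**Figure D1:**
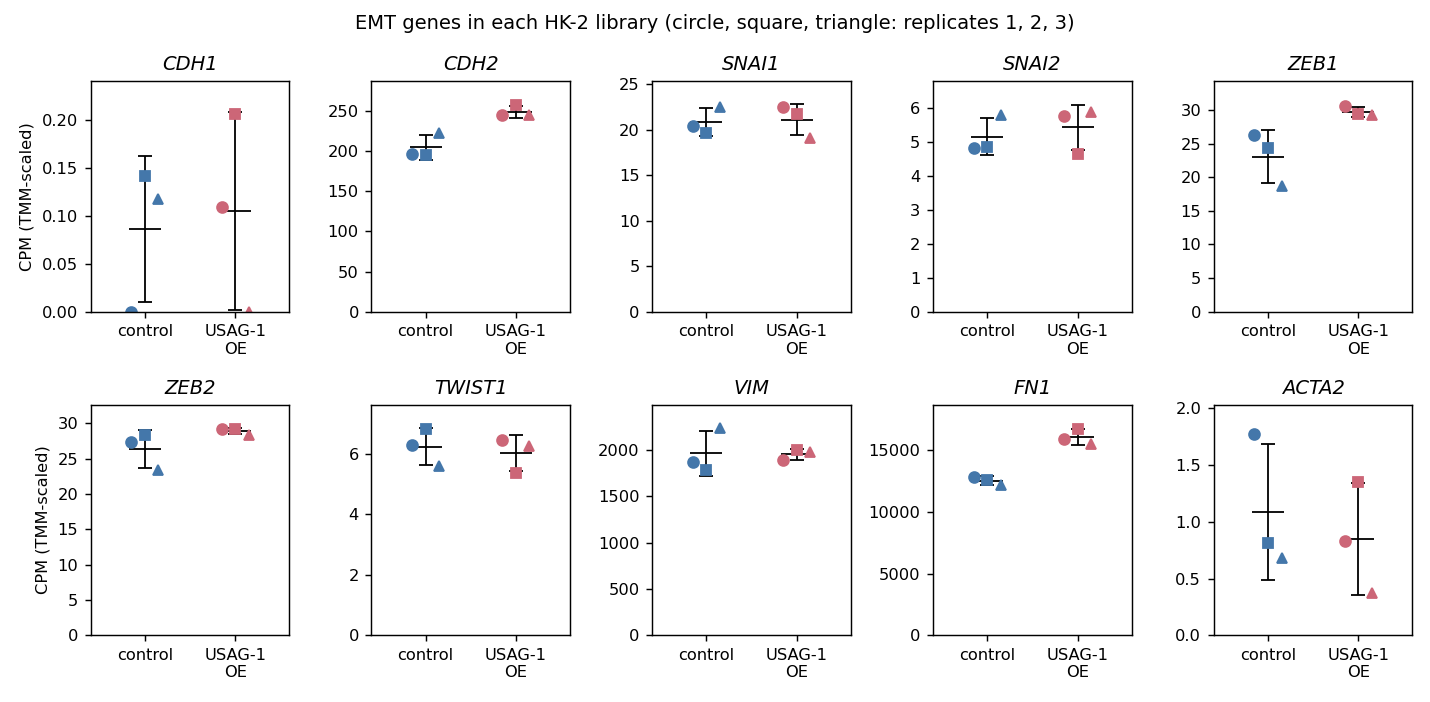
Level of each EMT gene in CPM (vertical axes, linear, starting at 0) in the 3 control (blue) and 3 USAG-1 overexpression (red) libraries, with horizontal lines for the mean and bars for 1 SD. FN1 and CDH2 lay higher in all 3 USAG-1 overexpression libraries than in any control library, and CDH1 stayed under 0.21 CPM throughout.

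The cadherins come first, since exchange of E-cadherin for N-cadherin is the classical mark of EMT. CDH1 (ENSG00000039068, chr16:68737292-68835537, hg38 per the submitters' processing notes, as are all positions here) encodes E-cadherin, the calcium-dependent adhesion protein of epithelial junctions. Its counts were 0, 7 and 5 in control libraries and 5, 9 and 0 in USAG-1 overexpression libraries. These sum to 12 and 14 counts out of 3 libraries each, and the groups overlapped fully. The gene failed the filter on low counts and was not tested. Without that filter its log2 fold change was 0.26 with an SE of 1.502, and edgeR's Benjamini-Hochberg adjusted p was 0.959. An error of that size leaves large changes in either direction undetected.

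CDH2 (ENSG00000170558, chr18:27932879-28177946, minus strand) encodes N-cadherin, the adhesion protein of mesenchymal and neural cells and of the proximal tubule. Its level was 197, 195 and 223 CPM in control libraries and 245, 258 and 245 CPM in USAG-1 overexpression libraries. Every USAG-1 overexpression library lay above every control library, and control replicate 3 was the control nearest to them. The means were 205 ± 15.7 and 249 ± 7.49 CPM (SD, n = 3 each). CDH2 rose by 0.28 on the log2 scale (SE 0.07, 95% interval 0.13 to 0.44), with an adjusted p of 0.0263 in edgeR's test. The rise did not keep its call when any of 5 libraries was removed: the Benjamini-Hochberg adjusted p from edgeR was 0.0842 and 0.0966 on removal of control replicates 1 and 2, and 0.0870, 0.115 and 0.0864 on removal of USAG-1 overexpression replicates 1, 2 and 3. On removal of control replicate 3 the call held, with an adjusted p of 2.0e-04 by edgeR. Without the filter on low counts it was 0.0502. The direction was the same under every alternative tried, at a log2 fold change of 0.25 to 0.35. RNA from whole cultures cannot tell a change in the share of cells that express a gene from a change in RNA per cell.

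The transcription factors were detected at low to moderate counts. SNAI1 (ENSG00000124216, chr20:49982980-49988886) encodes Snail, a zinc finger repressor that silences CDH1. Control libraries had 20.4, 19.7 and 22.5 CPM, and USAG-1 overexpression libraries had 22.5, 21.8 and 19.1 CPM. The groups overlapped, and the log2 fold change was 0.02 (95% interval -0.20 to 0.24). SNAI2 (ENSG00000019549, chr8:48917598-48921440) encodes Slug, the related repressor. Its means were 5.14 ± 0.543 CPM in control and 5.42 ± 0.671 CPM in USAG-1 overexpression libraries (SD, n = 3 each). The ranges overlapped here too, with a log2 fold change of 0.08 (95% interval -0.29 to 0.44). TWIST1 (ENSG00000122691, chr7:19020991-19117118) encodes a basic helix-loop-helix factor of mesoderm formation. It had 262, 337 and 239 counts in control libraries and 296, 234 and 270 counts in USAG-1 overexpression libraries. Neither group stood above the other, and the log2 fold change was -0.05 (95% interval -0.39 to 0.28). In edgeR's test the Benjamini-Hochberg adjusted p values of SNAI1, SNAI2 and TWIST1 were 0.920, 0.793 and 0.851. The intervals of these 3 genes exclude a doubling or a halving of the RNA, but not changes within their bounds.

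The ZEB factors were the members whose control libraries spread most relative to their USAG-1 overexpression libraries, a difference in spread that was not tested. ZEB1 (ENSG00000148516, chr10:31318495-31529814) encodes a zinc finger and homeodomain repressor of epithelial genes. It measured 26.2, 24.4 and 18.6 CPM in control libraries and 30.6, 29.4 and 29.3 CPM in USAG-1 overexpression libraries. The groups did not overlap, and control replicate 3 was the lowest library. The log2 fold change was 0.37 (SE 0.12, 95% interval 0.09 to 0.65), and the adjusted p of 0.0794 from edgeR missed the threshold. Without control replicate 3 the difference was smaller, at 0.24, and passed the test with an adjusted p of 0.0236 by edgeR, and DESeq2 called it with all 6 libraries (log2 fold change 0.37, adjusted p 0.0332). ZEB1 shares its locus with the antisense gene ZEB1-AS1, which had 49 to 81 counts, and whether counting used strand was not given in the sources used here.

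ZEB2 (ENSG00000169554, chr2:144364364-144521057, minus strand) encodes the paralog of ZEB1. Its level was 27.4, 28.3 and 23.3 CPM in control libraries and 29.2, 29.2 and 28.4 CPM in USAG-1 overexpression libraries. The ranges were separated only by a small gap, and the lowest library was again control replicate 3. The log2 fold change was 0.13 (95% interval -0.07 to 0.33), with an adjusted p of 0.351 in edgeR's test. In all, the groups did not overlap for 4 of the 9 genes tested, CDH2, FN1, ZEB1 and ZEB2, while the groups did not overlap for 37.6% of all genes tested. The coefficient of variation was 17.1% in control and 2.44% in USAG-1 overexpression libraries for ZEB1, and 10.1% and 1.59% for ZEB2.

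The proportion of ZEB1 to ZEB2 counts within a library, a measure chosen after the counts were seen, needs no scaling between libraries. It was 0.957, 0.861 and 0.799 in control libraries and 1.05, 1.01 and 1.03 in USAG-1 overexpression libraries. ZEB2 thus had more counts than ZEB1 in every control library and fewer in every USAG-1 overexpression library. For SNAI1 over SNAI2, the same proportion was 4.23, 4.06 and 3.91 in control libraries and 3.91, 4.68 and 3.26 in USAG-1 overexpression libraries, with no separation. Two-sided exact permutation tests gave p = 0.1 for ZEB1 over ZEB2, the smallest value that 3 against 3 libraries allow, and p = 0.7 for SNAI1 over SNAI2 (0.2 and 0.7 after adjustment over the 2 proportions), so neither difference passed.

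The mesenchymal products of EMT differed from each other. FN1 (ENSG00000115414, chr2:215360440-215436073, minus strand) encodes fibronectin, a matrix glycoprotein that binds integrins and collagen. It measured 12828, 12582 and 12149 CPM in control libraries and 15856, 16726 and 15512 CPM in USAG-1 overexpression libraries. Every USAG-1 overexpression library lay above every control library, and the 3 controls lay close together, control replicate 3 the lowest. The means were 12520 ± 344 and 16031 ± 626 CPM (SD, n = 3 each). FN1 rose by 0.36 on the log2 scale (SE 0.05, 95% interval 0.25 to 0.46), with an adjusted p of 0.0025 in edgeR's test. The call held under all 14 alternatives, with log2 fold changes of 0.33 to 0.38 and a highest adjusted p of 0.0189. With a share of 1.16% to 1.30% of all counts in control and 1.56% to 1.67% in USAG-1 overexpression libraries, FN1 held the most counts of any gene in 5 libraries and was second in control replicate 3.

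VIM (ENSG00000026025, chr10:17228241-17237593) encodes vimentin, the intermediate filament of mesenchymal cells. Its level was 1865, 1784 and 2234 CPM in control libraries and 1888, 2001 and 1972 CPM in USAG-1 overexpression libraries. Control replicate 3 had the highest level of the 6 libraries, and the other controls the lowest. With all libraries the log2 fold change was -0.01 (95% interval -0.20 to 0.19) and the adjusted p was 0.974 by edgeR. Without control replicate 3 it became 0.11 (95% interval 0.03 to 0.18) and passed edgeR's test with an adjusted p of 0.0440, while the same fit called 27.0% of 18866 genes. VIM-AS1 on the opposite strand had 48 to 437 counts.

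ACTA2 (ENSG00000107796, chr10:88935074-88991339, minus strand) encodes smooth muscle actin, the contractile actin of myofibroblasts. It had only 74, 40 and 29 counts in control libraries and 38, 59 and 16 counts in USAG-1 overexpression libraries. Both groups spread widely and overlapped. The log2 fold change was -0.35 (SE 0.53, 95% interval -1.57 to 0.87), with an adjusted p of 0.707 in edgeR's test. ACTA2 overlaps FAS on the other strand, which had 877 to 1287 counts, and STAMBPL1, so its low level is uncertain.

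**Figure D2:**
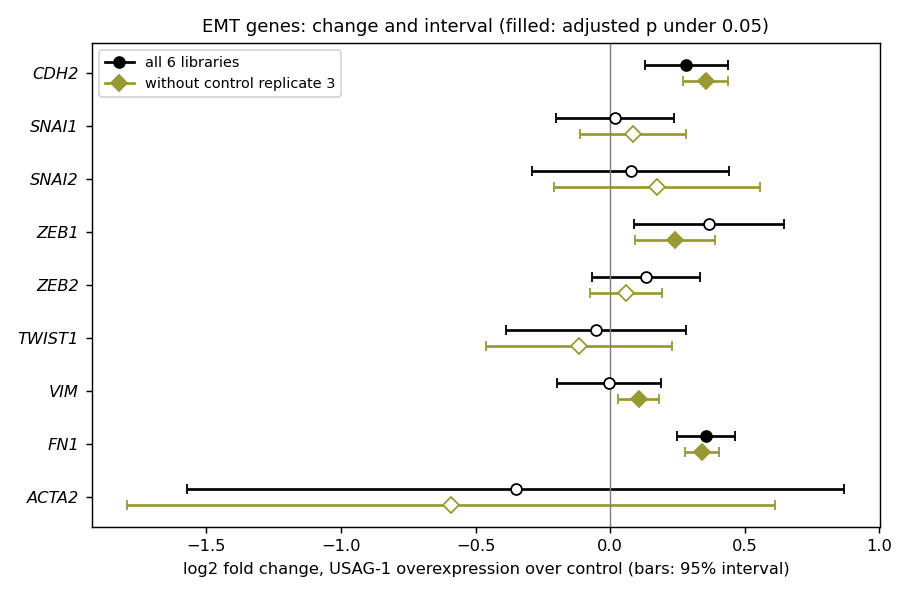
Log2 fold change of the 9 EMT genes tested (horizontal axis, USAG-1 overexpression over control) with 95% intervals, from all 6 libraries (black circles) and without control replicate 3 (olive diamonds); filled symbols passed an adjusted p of 0.05. FN1 and CDH2 were called in both fits, ZEB1 and VIM only without control replicate 3, and the interval of ACTA2 was the widest.

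Cell type markers were measured beside these values, and their calls are read beside the 15.9% of all genes tested that were called. Keratin KRT8 was at a mean of 1081 CPM in control and 1100 CPM in USAG-1 overexpression libraries, and PAX8 at 375 and 448 CPM. Both transcripts were thus present, whereas PAX2 had only 4 to 14 counts per library. The proximal tubule receptor LRP2 had 0 counts in every library, CUBN and AQP1 had 15 or fewer, and SLC34A1 had 7 to 27. The summed level of the 16 tubular markers was 2255 to 2632 CPM in control and 2530 to 2618 CPM in USAG-1 overexpression libraries. These sums overlapped only through control replicate 3, at 2632 CPM, while the other controls were at 2292 and 2255 CPM. KRT8 alone held 995, 971 and 1277 CPM of the control sums and 1073, 1125 and 1102 CPM of the USAG-1 overexpression sums. Of the 12 tubular markers tested, 5 were called, PAX8, GGT1 and MME higher and CDH6 and CDH16 lower. Among fibroblast markers COL1A2 was at 0 in every library and COL3A1 and PDGFRA had 4 counts or fewer, while the summed level of the 7 in the table was 43.6 to 45.6 CPM in control and 58.5 to 61.9 CPM in USAG-1 overexpression libraries, mostly LUM, the 1 of 4 tested that was called (33.6 to 49.8 CPM, higher). Endothelial markers summed to 3.66 to 6.14 CPM in control and 1.81 to 4.596 CPM in USAG-1 overexpression libraries, with none of 2 tested called by edgeR and none at an unadjusted p under 0.05.

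Transcripts of T and NK cells were present in libraries of this epithelial line and moved with the groups. The 15 markers summed to 110 to 125 CPM in control and 32.2 to 41.8 CPM in USAG-1 overexpression libraries. IL7R alone held 21.9, 21.0 and 17.8 CPM of the control sums and 27.6, 23.6 and 21.9 CPM of the USAG-1 overexpression sums. Of the 15, 13 were called, all lower, with a median log2 fold change of -3.21 over the 15, the exceptions being IL7R and KLRD1. Myeloid markers summed to 52.3 to 113 CPM in control and 41.4 to 76.2 CPM in USAG-1 overexpression libraries. Of the myeloid markers, 2 of 10 were called, LYZ and ITGAM, both lower, a share near the 15.9% called over all genes tested. VIM and ZEB2 are also expressed by leukocytes, and the part of these transcripts in the values of the EMT genes was not tested.

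**Figure D3:**
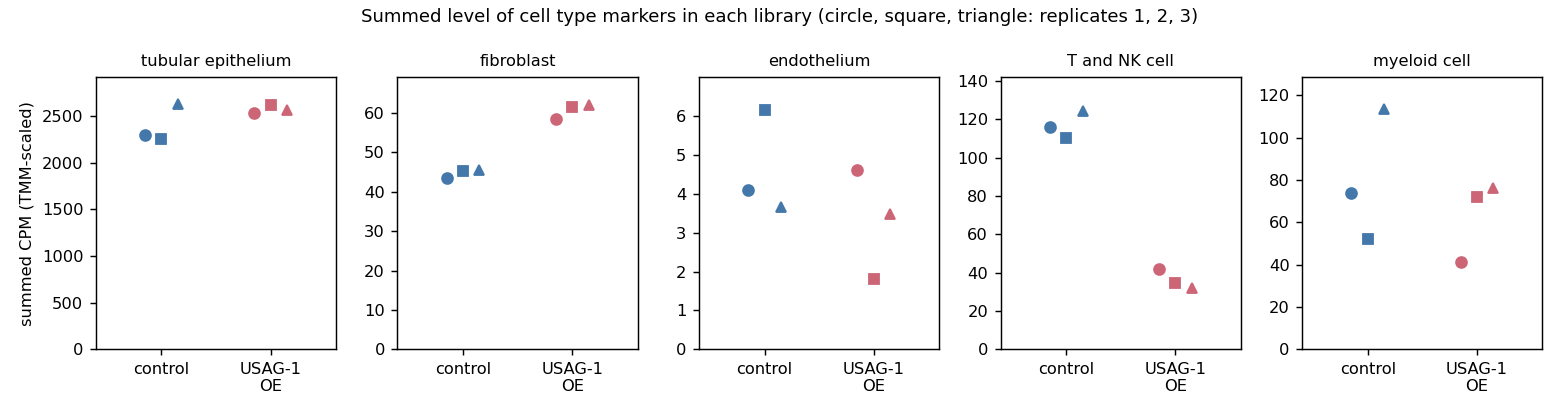
Summed CPM (vertical axes, linear, starting at 0) of the markers of 5 cell types in each control (blue) and USAG-1 overexpression (red) library, with a symbol per replicate. T and NK cell markers summed to 110 to 125 CPM in control and to 32.2 to 41.8 CPM in USAG-1 overexpression libraries. IL7R alone held 27.6, 23.6 and 21.9 CPM of those USAG-1 overexpression sums. Tubular sums overlapped between the groups only through control replicate 3, where KRT8 was at 1277 CPM against 995 and 971 CPM in the other controls.

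The genes that work with the EMT genes were examined in 7 lists, each read beside the same background of 8.95% of genes called higher and 6.91% called lower. In the cadherin family, 7 of 16 genes in the table could be tested, 1 rose (CDH2) and 2 fell, with a median log2 fold change of 0.08. CDH6, the K-cadherin of the proximal tubule, had 9361, 11239 and 7168 counts in control and 7048, 6796 and 6081 counts in USAG-1 overexpression libraries. Its level fell from 207 ± 33.5 to 150 ± 7.96 CPM (log2 fold change -0.46, SE 0.11, adjusted p 0.0296 by edgeR, n = 3 each). CDH16, the kidney-specific cadherin, fell from 9.91 ± 0.855 to 6.20 ± 0.385 CPM (log2 fold change -0.68, SE 0.13, adjusted p 0.00992 by edgeR, n = 3 each). Both fell while CDH2 rose, and CDH3, which encodes P-cadherin and is named after its values were seen, had a log2 fold change of 0.60 with an adjusted p of 0.0553 by edgeR. CDH3 passed without control replicate 3 (adjusted p 0.0469 by edgeR) and with DESeq2 (0.0479). The call of CDH6 was lost without each library other than control replicate 3, at adjusted p values of 0.0873 to 0.122 by edgeR, and also with library sizes alone (0.0514) and without the filter on low counts (0.0566). That of CDH16 was lost without USAG-1 overexpression replicate 2 (adjusted p 0.0536).

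Among catenins and other partners of adherens junctions, 3 of 12 genes tested rose and none fell, with a median log2 fold change of 0.03. At an unadjusted p under 0.05 by edgeR, 4 were higher and 1, VCL, named after its values were seen, was lower. LIMA1, which encodes the actin-binding protein EPLIN that ties cadherin and catenin complexes to actin, rose from 103 ± 5.90 to 153 ± 0.164 CPM (log2 fold change 0.57, SE 0.06, adjusted p 0.00109 by edgeR, n = 3 each). JUP, which encodes plakoglobin, rose from 35.6 to 48.4 CPM, and NECTIN3, a nectin adhesion receptor, from 56.0 to 68.6 CPM, with adjusted p values of 0.0185 and 0.0146 by edgeR. The calls of JUP and NECTIN3 were lost without control replicate 2 or any USAG-1 overexpression replicate, at adjusted p values of 0.0587 to 0.0906 by edgeR. CTNNB1, which encodes beta-catenin, and CTNND1, which encodes p120-catenin, are named here after their values were seen: their log2 fold changes were -0.10 and -0.06, with adjusted p values of 0.469 and 0.465 by edgeR.

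Of the other EMT transcription factors, 9 of 14 in the table were tested, 1 fell and none rose, with a median log2 fold change of 0.02. At an unadjusted p under 0.05 by edgeR, KLF8 was also higher and ETS1 lower. HMGA2, an architectural chromatin protein that works upstream of SNAI1 and TWIST1, had 15150, 17349 and 13393 counts in control and 12142, 11220 and 10953 counts in USAG-1 overexpression libraries. It fell from 343 ± 25.6 to 258 ± 5.48 CPM (log2 fold change -0.41, SE 0.07, adjusted p 0.0056 by edgeR, n = 3 each), and the call held under all 14 alternatives. KLF8, a repressor of CDH1, had a log2 fold change of 0.75 with an adjusted p of 0.0520, and ETS1 one of -0.12 with an adjusted p of 0.152, both by edgeR.

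Regulators of the epithelial state, the counterweight of the SNAI and ZEB factors, had the highest median of the 7 lists: 0.44 on the log2 scale over 11 genes tested. Of these, 4 rose and none fell. At an unadjusted p under 0.05 by edgeR, 7 were higher and 1, SPINT2, named after its values were seen, was lower. The summed level of the list was 532 to 638 CPM in control and 564 to 598 CPM in USAG-1 overexpression libraries. These sums overlapped only through control replicate 3, at 638 CPM, while the other controls were at 532 and 535 CPM. SPINT2 alone held 281, 280 and 370 CPM of the control sums and 247, 268 and 263 CPM of the USAG-1 overexpression sums. ESRP2, a splicing factor that maintains epithelial isoforms, rose from 36.2 ± 1.75 to 50.2 ± 2.52 CPM (log2 fold change 0.47, SE 0.07, adjusted p 0.00385 by edgeR, n = 3 each). ELF3, an epithelial ETS factor, rose from 80.3 ± 2.09 to 111 ± 7.43 CPM (log2 fold change 0.46, SE 0.07, adjusted p 0.00347 by edgeR, n = 3 each). The Kruppel-like factors KLF4 and, named after its values were seen, KLF5 had log2 fold changes of 0.44 and 0.29 with adjusted p values of 0.0193 and 0.0347 by edgeR. Both lost their calls without each library other than control replicate 3, at adjusted p values of 0.0543 to 0.0845 for KLF4 and 0.0740 to 0.135 for KLF5 by edgeR, and KLF5 also without the filter on low counts (0.0624). The host gene of the microRNAs miR-200c and miR-141, MIR200CHG, and the repressor OVOL1, both named after their values were seen, had 0 counts in every library.

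The corepressors that SNAI and ZEB factors recruit were all tested, and 3 of 13 rose and none fell, with a median log2 fold change of 0.03. At an unadjusted p under 0.05 by edgeR, 4 were higher and 1, EZH2, named after its values were seen, was lower. CTBP2, a partner of ZEB1, rose from 105 ± 3.46 to 135 ± 2.33 CPM (log2 fold change 0.36, SE 0.05, adjusted p 0.00471 by edgeR, n = 3 each). Its paralog CTBP1, named after its values were seen, had a log2 fold change of -0.007 (adjusted p 0.959 by edgeR). RCOR1, the scaffold of the CoREST complex that Snail recruits, rose from 65.5 ± 2.01 to 85.9 ± 3.30 CPM (log2 fold change 0.39, SE 0.06, adjusted p 0.00453 by edgeR, n = 3 each). SIN3A had a log2 fold change of 0.26 with an adjusted p of 0.0249, and lost its call without control replicate 1 or any USAG-1 overexpression replicate, at adjusted p values of 0.0640 to 0.110 by edgeR. KDM1A, the CoREST demethylase, named here after its values were seen, had a log2 fold change of 0.03 (adjusted p 0.740 by edgeR).

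In the mesenchymal and contractile cytoskeleton, 20 of 23 genes were tested, 3 rose and 1 fell, and the median log2 fold change was -0.02. MYL9, a regulatory myosin light chain, rose from 110 ± 13.9 to 175 ± 3.03 CPM (log2 fold change 0.66, SE 0.09, adjusted p 0.0026 by edgeR, n = 3 each). CNN2, a calponin, had a log2 fold change of 0.38 (adjusted p 0.0166 by edgeR) and lost its call without each library other than control replicate 3 (adjusted p 0.0533 to 0.0814). NES, which encodes the intermediate filament nestin, fell by 0.33 on the log2 scale (adjusted p 0.0109 by edgeR), a call lost without USAG-1 overexpression replicate 1 (adjusted p 0.0650) or 2 (adjusted p 0.0653). The third gene that rose was MRTFA, a coactivator of serum response factor, which is named, like the next pair, after its values were seen (log2 fold change 0.31, adjusted p 0.0274 by edgeR). Its call was lost without each library other than control replicate 3 (adjusted p 0.0531 to 0.112). The smooth muscle marker TAGLN had a log2 fold change of -0.09 (adjusted p 0.631 by edgeR), and S100A4, also called fibroblast-specific protein, one of -0.89 (adjusted p 0.0585 by edgeR). S100A4 had 329, 410 and 670 counts in control and 224, 263 and 270 counts in USAG-1 overexpression libraries, and its value was -0.49 (adjusted p 0.0450 by edgeR) without control replicate 3 and -1.07 (adjusted p 0.0462) without control replicate 1. With all 6 libraries S100A4 was also called by DESeq2 (adjusted p 0.00469) and by edgeR with at least 10 counts in every library (adjusted p 0.0451). The part of the T and NK cell and myeloid transcripts in the value of S100A4 was not tested.

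In the matrix genes around fibronectin and its receptors, 8 of 18 genes tested were called, 2 higher, as FN1 itself was, and 6 lower. The median log2 fold change was 0.04. TNC, which encodes tenascin-C, had 12522, 15317 and 12269 counts in control and 8615, 8615 and 8605 counts in USAG-1 overexpression libraries. It fell from 299 ± 11.4 to 195 ± 6.27 CPM (log2 fold change -0.62, SE 0.06, adjusted p 5.67e-04 by edgeR, n = 3 each). LOXL2, a lysyl oxidase that cross-links collagen, fell from 1116 ± 16.4 to 820 ± 31.6 CPM (log2 fold change -0.45, SE 0.05, adjusted p 0.00146 by edgeR, n = 3 each). CCN2, which encodes connective tissue growth factor, rose instead, with 4388, 4892 and 4161 counts in control and 8462, 11284 and 9709 counts in USAG-1 overexpression libraries. Its level went from 101 ± 3.97 to 223 ± 37.1 CPM (log2 fold change 1.15, SE 0.11, adjusted p 8.71e-04 by edgeR, n = 3 each). The calls of TNC, LOXL2 and CCN2 held under all 14 alternatives. The remaining calls, named after their values were seen, were FBN1 (0.50) as higher and SDC4 (-0.47), ITGA4 (-0.995), ITGB3 (-0.23) and ITGB6 (-0.75) as lower on the log2 scale. FBN1 held its call under all 14 alternatives. ITGB3 and ITGB6 lost theirs without each library other than control replicate 3 (adjusted p 0.0550 to 0.130 by edgeR) and without the filter on low counts (0.0532 and 0.0633), SDC4 without any USAG-1 overexpression replicate (0.0501 to 0.0629), and ITGA4 without control replicate 1 (0.0613) or USAG-1 overexpression replicate 2 or 3 (both 0.0834 by edgeR). ITGA4 is an integrin chain of leukocytes too, and the part of the T and NK cell transcripts in its value was not tested. The subunits of the main fibronectin receptor, ITGA5 and ITGB1, also named after their values were seen, had log2 fold changes of -0.03 and 0.05, with adjusted p values of 0.773 and 0.513 by edgeR.

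**Figure D4:**
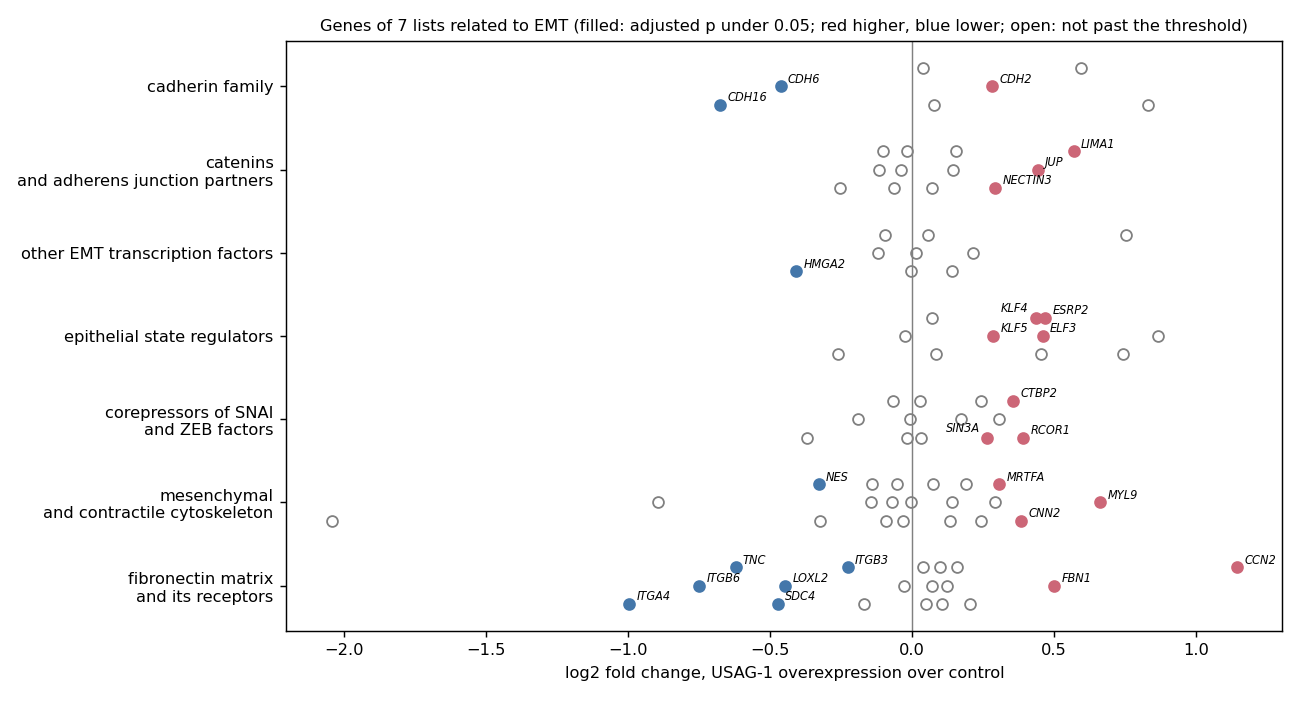
Log2 fold change (horizontal axis, USAG-1 overexpression over control) of every tested gene of the 7 lists, a row for each list; filled symbols passed an adjusted p of 0.05, red higher and blue lower, and open symbols did not. The epithelial state regulators had 4 genes called, all higher, and the fibronectin matrix list had 2 higher and 6 lower.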

How the data were processed

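The authors deposited 1 table of whole-number counts per gene, not normalized, for all 6 libraries; its name speaks of FPKM, but the values were whole numbers and were used as counts. Per the labels, libraries were poly(A)-selected and strand-specific, reads were trimmed with cutadapt 1.9, and the build was hg38. The aligner, counter and annotation were not given in the sources used here. Genes were filtered with filterByExpr, scaled by TMM and tested with the quasi-likelihood test of edgeR 4.0.16 (R 4.3.3) without a replicate block, with Benjamini-Hochberg adjustment. Dividing the absolute log2 fold change by the root of F gave its SE. Alternatives used DESeq2 1.42.0 and limma 3.58.1, other scalings and filters, a replicate block and the removal of each library. The scripts were tested on simulated data. The study's methods name DESeq2 and an adjusted p of 0.05. The 10 genes and all lists were chosen with earlier results of these data known. The genes named were the 10, SOSTDC1, cell type markers and the 3 with the smallest p in each list; others are said to be named after their values were seen. From the lists, 13 symbols without a row were not analysed here, and 1 gene of the fibronectin matrix list is not reported here. Limits from a count of 0 cover counting error only, since copies of 1 molecule could not be told from separate molecules.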

Additional observations from a re-analysis of the deposited data

How the results depend on the processing

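FN1 kept its call and direction under all 14 alternatives, and CDH2 kept its direction. The number of EMT genes called, 2 in the main comparison, was 1 without the filter on low counts, where CDH2 had an adjusted p of 0.0502, and 1 (FN1) to 4 when a library was left out, the 4 arising without control replicate 3. Over all genes the count was 1137 to 5091 when a library was left out, against 2884. The replicate block left the EMT count at 2, gave 2381 calls over all genes, ended the call of ITGB3 (adjusted p 0.0668) and called S100A4 (0.0384); same-numbered libraries did not deviate together (correlations 0.07, -0.05 and 0.04), and not every library correlated best with its own number. Lists moved as follows when a library was left out: cadherin family 0 to 4, junction partners 1 to 5, other EMT factors 1 to 2, epithelial state regulators 2 to 5, corepressors 2 to 6, cytoskeleton 1 to 11 and fibronectin matrix 4 to 11. The cadherin count was 1 without the filter, other EMT factors 2 with at least 10 counts in every library, and corepressors 5 with DESeq2. Small values changed sign. VIM gave 0.0142 with library sizes alone, 0.0016 with limma-voom, 0.0012 with the replicate block and -0.069 to 0.11 when a library was left out. The same removals gave ACTA2 -0.85 to 0.19, SNAI1 -0.026 to 0.087, TWIST1 -0.12 to 0.029, CTNNB1 -0.15 to 0.0068, TAGLN -0.17 to 0.060 and ITGA5 -0.050 to 0.020. The cause of these changes was not tested. The low counts of CDH1 limited what could be said of it.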
